A study of Mus musculus with 2 samples.

Results

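Natural killer (NK) cells of a mouse kidney with folic acid nephropathy are described here from droplet single-cell RNA counts. A barcode was taken as an NK cell when it held at least 2 unique molecular identifiers (UMIs, counts of single captured transcripts) of Ncr1, Klrb1c and Klre1 summed, at most 1 UMI of Cd3d, Cd3e and Cd3g summed, none of Cd79a and fewer than 5 of C1qa, C1qb and C1qc summed. It also needed at least 500 UMIs, at least 200 genes and at most 50% mitochondrial UMIs. In the folic acid (FA) kidney 491 of 15922 barcodes that passed those quality limits met the rule, or 3.08% (95% Clopper-Pearson interval 2.82 to 3.36%), of 28678 barcodes in the series. The control kidney had 60 such barcodes among 6295 and enters only as that number. The series holds 1 FA library, from a wild type mouse kidney with FA-induced nephropathy, and 1 control library, from a wild type kidney with no such disease. The labels state no strain, sex, age, dose, time after folic acid or number of animals. With 1 library of each kind no test across animals was possible, cells are not replicates, and every interval below covers counting error only. Comparisons are therefore between gates, sets of barcodes chosen by marker transcripts, within the FA library.

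NK cells are innate lymphocytes that kill injured, infected or transformed cells without a rearranged antigen receptor. They weigh signals from activating and inhibitory receptors, most of which lie in the NK gene complex in mice, and kill by releasing perforin and granzymes from secretory granules. They also secrete interferon gamma and chemokines. Folic acid at a high dose injures the kidney tubules, and NK cells can enter injured kidneys from the blood or reside in the organ.

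In most barcodes the NK label held for the transcripts the rule did not use. Of the 3 marker genes outside the rule, Gzma was detected in 90.6% of the NK barcodes, Prf1 in 83.1% and Gzmb in 68.0%. In B barcodes, a gauge of free RNA, the same transcripts were found in 0 of 581 barcodes (which allows a share of up to 0.516%), 4.65% and 0.344%. The median depth was 2968 UMIs in NK barcodes (lowest 506, highest 24560) and 2243 UMIs in B barcodes. Some of the deepest NK barcodes lacked Gzma, and deep barcodes weigh more on levels summed over the gate. The deepest had 0 UMIs of Gzma, Prf1, Gzmb and Ccl5. The 13 NK barcodes with Prf1 but neither Gzma nor Gzmb had a median of 8471 UMIs. The genes of the rule are given as a description. Ncr1, the activating receptor NKp46, had 1261 UMIs over the gate and was seen in 87.4% of its barcodes, Klrb1c, which encodes NK1.1, in 78.4%, and Klre1 in 79.8%. The sum of the 3 genes had a median of 6 UMIs and a maximum of 23 UMIs per barcode. Cd79a and C1qb were at 0.

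**Figure D1:**
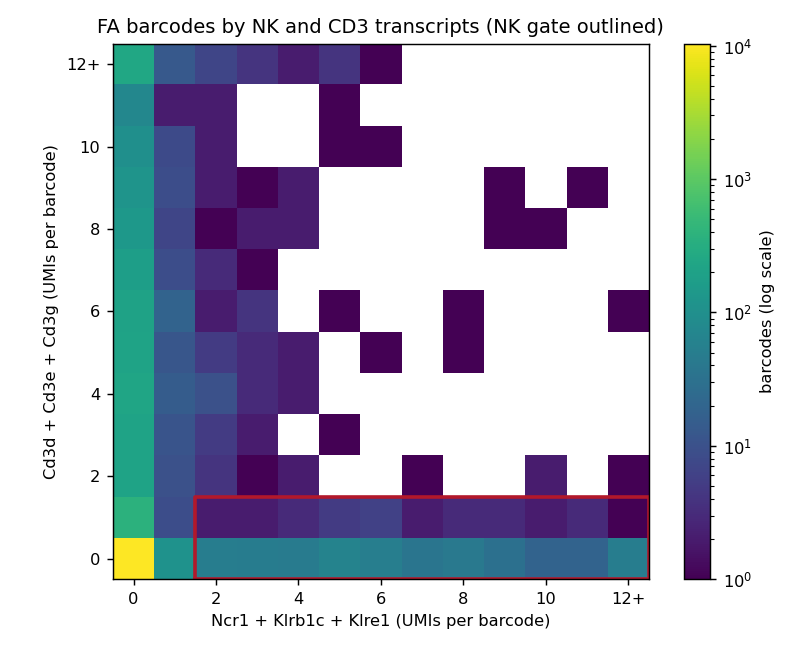
Number of FA barcodes (colour, log scale) by the summed UMIs of Ncr1, Klrb1c and Klre1 (horizontal) and of Cd3d, Cd3e and Cd3g (vertical), among quality-passed barcodes with no Cd79a and fewer than 5 C1q UMIs; 12 stands for 12 or more. The outlined NK gate runs along the bottom edge, and few barcodes are high on both axes.

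Barcodes near the limits of the rule differed in their content. The 53 barcodes with a sum of 2 UMIs, just inside, had 4289 counts per 1000000 UMIs of the gate (CPM) of Gzma and 547 CPM of Prf1, and the 387 with 4 or more had 8618 and 1027 CPM. The 121 barcodes with a sum of 1 UMI, just outside, had 362 CPM of Gzma and 67.6 CPM of Prf1. Inside the CD3 limit, the 32 barcodes with 1 CD3 UMI had 8481 CPM of Gzma and 27.3 CPM of Trac. Outside it, 98 barcodes with 2 or more CD3 UMIs had 2760 CPM of Gzma, 374 CPM of Il7r and 526 CPM of Trac, a mixture of NK and T cell transcripts. A further 5 barcodes were left out for Cd79a and 9 for C1q.

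The FA library held 84138607 UMIs in 18997 barcodes, with a median of 2768 UMIs. The libraries shared 54 barcode sequences, 1 of them in the NK gate. Among the NK barcodes 60 (12.2%) scored as likely doublets against simulated pairs, and 71 (14.5%) carried at least 3 UMIs of 20 tubule, podocyte, myeloid and endothelial markers; 42 barcodes were in both sets. Tubule markers summed to 4761 CPM in the NK gate and 2934 CPM in the CD8 T gate, against 49429 CPM in tubule barcodes. All 9 of them had UMIs in the NK gate, led by Spp1, which encodes osteopontin. Spp1 stood at 4422 CPM in NK, 2742 CPM in CD8 T and 2242 CPM in B barcodes, against 46117 CPM in tubule barcodes. After each barcode was thinned to 1000 UMIs, Spp1 was seen in 66.9% of NK, 60.3% of CD8 T and 63.8% of B barcodes, and 71.0% of its NK UMIs lay in 25 barcodes. Counts of listed genes against CD8 T barcodes are given below also without the likely doublets and without the marker-bearing barcodes where they change.

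Cytotoxic transcripts were abundant in the NK gate. Gzma, which encodes granzyme A, was the fifth most abundant transcript of the gate, with 7951 CPM (7818 to 8086) in NK barcodes, against 577 CPM in CD8 T, 17.7 CPM in CD4 T and 0 in B barcodes. A NK barcode held between 0 and 157 Gzma UMIs, with a median of 24. Gzma was therefore spread through the gate, and the 25 highest barcodes held 16.9% of its UMIs. Thinned to 1000 UMIs per barcode, Gzma was detected in 86.3% of NK and 17.6% of CD8 T barcodes. Prf1, which encodes the pore-forming perforin, had 958 CPM in NK barcodes, against 66.0 CPM in CD8 T and 3.37 CPM in CD4 T barcodes, 14.5-fold (12.5 to 16.9) higher than in CD8 T. Gzmb, granzyme B, had 937 CPM in NK, 304 CPM in CD8 T and 58.1 CPM in CD4 T barcodes. Its excess over CD8 T was 3.08-fold (2.84 to 3.35), smaller than that of Gzma or Prf1. Both T gates required 0 UMIs of Ncr1, Klrb1c and Klre1, so T cells carrying those receptors are outside every ratio against T barcodes given here. The 98 barcodes left out with at least 2 CD3 UMIs and at least 2 UMIs of those genes had 2760 CPM of Gzma. They had 199 CPM of Prf1 and 521 CPM of Gzmb, all above the CD8 T gate. Their weight on these ratios was not tested. Serpinb9 and Serpinb6b, inhibitors of serine proteases (Serpinb9 restrains granzyme B), had 567 and 599.9 CPM in NK barcodes, against 117 and 140.4 CPM in CD8 T barcodes.

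Gzmk and Gzmm, which also encode granzymes, were lower in NK barcodes. Gzmk had 9.38 CPM in NK, against 106 CPM in CD8 T barcodes, and Gzmm had 4.69 against 30.8 CPM. Nkg7, a granule membrane protein, was abundant in both gates, with 1757 CPM in NK and 1214 CPM in CD8 T barcodes, a ratio of 1.45. Of 17 cytotoxic granule genes tested against CD8 T barcodes, 6 were at least 2-fold higher in NK barcodes and 2 at least 2-fold lower, with a median log2 ratio of 0.67. Gzmc, 1 of the 6, had fewer than 20 UMIs in CD8 T barcodes. Over all 10657 genes tested, 9.86% were at least 2-fold higher and 6.6% at least 2-fold lower, with a median log2 ratio of 0.08. A gene was tested when both gates together held at least 20 UMIs. One that reached 20 UMIs through the NK gate alone was therefore close to certain to be higher there. Such genes are pointed out against CD8 T barcodes where they weigh on a count, and were not counted against CD4 T barcodes. Against CD4 T barcodes 11 of 16 granule genes were higher and 0 lower, with a median of 2.46. Of all 9587 genes 8.94% were higher and 7.98% lower, with a median of -0.02. Gzma, Gzmb and Prf1 were detected together in 296 NK barcodes (60.3%), and 21 (4.28%) had none of them. Genes of granule exocytosis, such as Unc13d and Rab27a, which dock and prime the granules, differed less. Of 8 tested, 2 were higher (Stx11 at 2.24-fold and Snap23 at 2.01-fold), 0 lower, and the median was 0.19; without the doublets or without the marker-bearing barcodes 1 was higher.

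**Figure D2:**
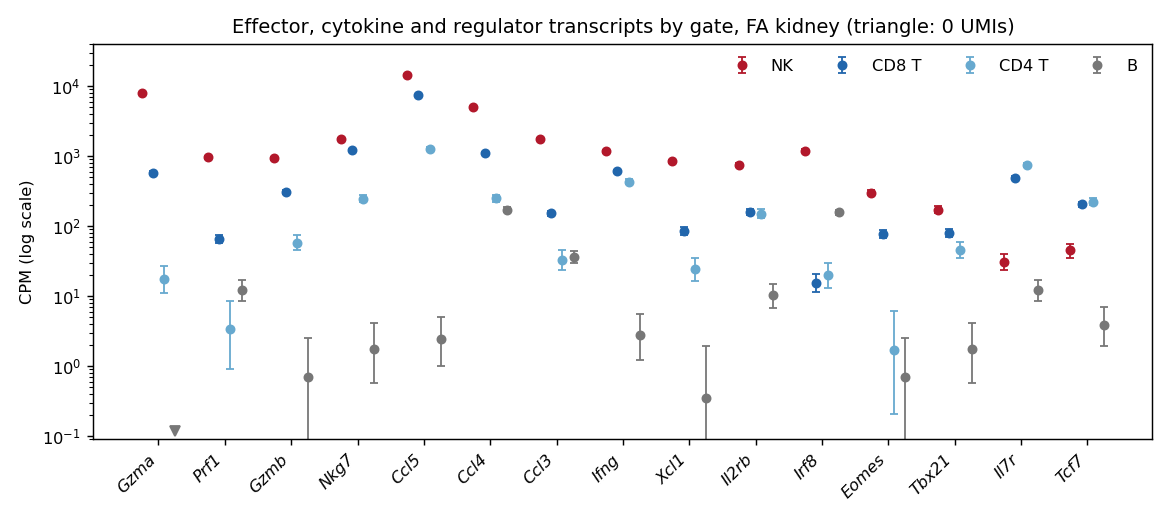
Level (CPM, log scale) of 15 effector, cytokine and regulator genes in the NK, CD8 T, CD4 T and B gates of the FA kidney; bars are exact 95% Poisson intervals and a triangle marks 0 UMIs. Gzma, Prf1, Ccl3, Xcl1 and Irf8 are highest in NK barcodes, Il7r and Tcf7 lowest in NK among the 3 NK and T gates.

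The promoters of the granule genes and of Ncr1 are shown because their transcripts define the cells. Each line is a RefSeq promoter window of 300 bases around the annotated start on GRCm38.p6, read along the gene's strand. Capitals mark matches, on either strand, to the T-box letters TCACAC, the RUNX letters TGTGGT or the ETS letters AGGAAG, and no matches overlapped in these windows. T-bet and Eomes are T-box factors, Runx3 is a RUNX factor and Ets1 an ETS factor.
Gzma promoter, chr13:113100932-113101231, minus strand: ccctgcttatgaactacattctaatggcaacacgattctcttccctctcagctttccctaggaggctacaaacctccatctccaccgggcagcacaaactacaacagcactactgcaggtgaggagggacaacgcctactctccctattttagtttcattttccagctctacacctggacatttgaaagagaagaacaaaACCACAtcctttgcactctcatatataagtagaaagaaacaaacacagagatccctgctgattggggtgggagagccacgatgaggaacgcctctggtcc
Gzmb promoter, chr14:56262285-56262584, minus strand: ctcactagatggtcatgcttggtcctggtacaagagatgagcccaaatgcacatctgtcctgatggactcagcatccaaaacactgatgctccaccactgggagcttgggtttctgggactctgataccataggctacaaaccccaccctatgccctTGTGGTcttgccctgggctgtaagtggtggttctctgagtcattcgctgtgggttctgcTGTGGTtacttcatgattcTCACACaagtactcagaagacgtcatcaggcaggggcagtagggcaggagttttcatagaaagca
Prf1 promoter, chr10:61297586-61297885, plus strand: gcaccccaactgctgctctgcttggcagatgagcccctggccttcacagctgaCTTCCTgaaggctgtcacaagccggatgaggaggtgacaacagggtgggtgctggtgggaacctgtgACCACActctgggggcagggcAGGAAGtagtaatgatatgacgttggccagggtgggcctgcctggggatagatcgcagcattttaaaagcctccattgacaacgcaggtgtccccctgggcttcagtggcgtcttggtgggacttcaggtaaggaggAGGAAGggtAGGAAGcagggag
Ncr1 promoter, chr7:4337465-4337764, plus strand: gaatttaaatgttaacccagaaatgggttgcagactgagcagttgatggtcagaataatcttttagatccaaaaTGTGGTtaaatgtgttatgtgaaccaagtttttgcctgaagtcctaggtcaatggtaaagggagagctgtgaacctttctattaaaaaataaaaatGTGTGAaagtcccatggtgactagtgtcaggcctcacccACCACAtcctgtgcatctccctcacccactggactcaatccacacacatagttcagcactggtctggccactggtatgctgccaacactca
A RUNX match was present in each of the 4 windows, once in Gzma and Prf1 and at 2 places in Gzmb and Ncr1. T-box letters were in the Gzmb and Ncr1 windows, and ETS letters at 4 places in Prf1. Of 32851 promoter windows of the same length, 16.8% held the RUNX letters, 14.5% the T-box letters and 35.4% the ETS letters. The windows of Irf8, Eomes, Ifng, Klra4 and Klra8 held none of the 3 motifs. A match is a run of letters only.

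Chemokine transcripts were as abundant as the granule ones. Ccl5, an attractant of T cells and monocytes, was the third most abundant transcript, with 14648 CPM in NK, against 7477 CPM in CD8 T, 1268 CPM in CD4 T and 2.47 CPM in B barcodes. A NK barcode held a median of 44 Ccl5 UMIs and at most 223. Ccl4 and Ccl3, attractants of leukocytes, had 5101 and 1737 CPM in NK, against 1114 and 152 CPM in CD8 T barcodes, a ratio of 4.58 (4.40 to 4.77) for Ccl4 and 11.4 (10.4 to 12.7) for Ccl3. Both were also found in macrophages, at 3752 CPM for Ccl4 and 1001 CPM for Ccl3. Ifng, the macrophage-activating interferon gamma, had 1168 CPM in NK, 609 CPM in CD8 T, 431 CPM in CD4 T and 2.82 CPM in B barcodes. Thinned, Ifng was detected in 54.2% of NK, 30.5% of CD8 T and 22.9% of CD4 T barcodes.

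Xcl1, which attracts cross-presenting dendritic cells, had 842 CPM in NK and 85.6 CPM in CD8 T barcodes, 9.84-fold (8.60 to 11.3) higher. It was uneven, since 25 barcodes held 56.9% of its UMIs and the highest alone held 418. Tnf had 23.5 CPM in NK and 27.7 CPM in CD8 T barcodes, and Il2, Il10 and Lta had at most 2 UMIs each in the NK gate. Of 12 cytokine genes tested against CD8 T, 5 were higher (Csf2, Ccl3, Ccl4, Xcl1, Tgfb1) and 3 lower (Lta, Ltb, Il2), with a median log2 ratio of 0.95. Csf2 had fewer than 20 UMIs in CD8 T barcodes. Without the likely doublets, or without the marker-bearing barcodes, 7 were higher. Against CD4 T barcodes 6 of 13 were higher, 5 lower and the median was 0.58. Over all genes tested, 9.86% were higher and 6.6% lower against CD8 T, and 8.94% and 7.98% against CD4 T.

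Several receptor genes of the NK gene complex were higher in NK than in CD8 T barcodes. The CD8 T gate required 0 UMIs of Ncr1, Klrb1c and Klre1, so T cells that carry those NK receptors were outside it. On chromosome 6 of GRCm38.p6 24 Klr genes lie between positions 128609227 and 131247716. Leaving out Klrb1c and Klre1, 15 of 22 had enough UMIs to test, but 10 of them reached 20 UMIs through the NK gate alone. The 5 with at least 20 UMIs in CD8 T barcodes, Klrb1f, Klrd1, Klrk1, Klrc2 and Klrc1, were 2.19-fold to 16.2-fold higher in NK barcodes. The 7 not tested had at most 12 UMIs in NK and 4 UMIs in CD8 T barcodes. Klrk1, the stress-ligand receptor NKG2D, had 738 CPM in NK and 188 CPM in CD8 T barcodes. Klrd1 (CD94) had 622 and 186 CPM. Its inhibitory partner Klrc1 (NKG2A) had 132 and 60.2 CPM, and its activating partner Klrc2 (NKG2C) had 189 and 47.0 CPM. Klrb1a, Klrb1b and Klri2 were close to absent from CD8 T barcodes, with 186, 184 and 343 UMIs in NK and 1, 2 and 2 UMIs in CD8 T barcodes.

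Of the signalling adaptors Tyrobp and Fcer1g were higher in NK barcodes and Hcst was within 2-fold. Tyrobp (DAP12) had 1945 CPM in NK and 35.5 CPM in CD8 T barcodes, 54.8-fold (45.1 to 67.2) higher, and Fcer1g 1990.4 and 38.2 CPM. Both were also high in macrophages, at 2214 CPM of Tyrobp and 3114 CPM of Fcer1g. Hcst (DAP10), which couples NKG2D, had 442 CPM in NK and 582 CPM in CD8 T barcodes, and Cd226, an adhesion receptor, 71.5 and 191 CPM. Of 19 receptor and adaptor genes tested against CD8 T, 14 were higher and 1 (Cd226) lower, with a median log2 ratio of 2.01. Of the 13 with at least 20 UMIs in CD8 T barcodes, 8 were higher. Against CD4 T barcodes 15 of 19 were higher and 1 lower, with a median of 3.89, where 8.94% of all genes were higher and 7.98% lower. Some of the 15, such as Klri2 and Klrb1b with 1 UMI each in CD4 T barcodes, reached 20 UMIs through the NK gate alone. Their direction follows from that limit, and how many did so was not counted.

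The Ly49 receptors, encoded by the Klra genes, read class I MHC and were expressed by different NK barcodes in different combinations. Klra4 (Ly49D, activating) had 874 UMIs in the NK gate and 1 UMI in CD8 T barcodes. Klra8 (Ly49H, activating) had 503 and 1 UMI, Klra7 (Ly49G, inhibitory) 491 and 6, and Klra9 (Ly49I, inhibitory) 407 and 8. The ratio for Klra4 was 1515, with an interval from 271 to 59909 set by the lone CD8 T count. Of the 11 Ly49 genes 7 reached 20 UMIs over both gates, or 6 without the marker-bearing barcodes, and none of them did so in CD8 T barcodes, so their direction follows from that limit and no count is drawn from it. Klra4 was detected in 41.8% of NK barcodes (thinned 28.6%), Klra7 in 41.5% (21.7%), Klra8 in 38.1% (21.1%), Klra9 in 36.0% (22.2%), Klra3 in 21.4% (10.8%) and Klra1 in 14.1% (7.45%). In B barcodes those shares were at most 0.344%.

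Counting these 6 genes, 76 NK barcodes had none, 110 had 1, 133 had 2, 122 had 3, 46 had 4, 3 had 5 and 1 had 6. These numbers move with depth, and after thinning 33.1% had none and 34.0% had 1. Klra8 was detected in 51.2% (44.2 to 58.2) of barcodes with Klra4 and 28.7% (23.5 to 34.3) of barcodes without it, at median depths of 2929 and 2997.5 UMIs. For Klra9 the shares were 32.7% (26.3 to 39.6) with Klra4 and 38.5% (32.8 to 44.4) without it, intervals that overlap. The Ly49 genes resemble each other. Of the 31-base words in the GENCODE M21 transcripts, 40.7% of Klra9, 32.4% of Klra3 and 24.4% of Klra8 were shared with another of these 6 genes, against 10.2% of Klra4, 6.84% of Klra1 and 3.10% of Klra7. The labels do not say how reads from shared stretches were counted, so values of Klra3, Klra8 and Klra9 are uncertain.

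**Figure D3:**
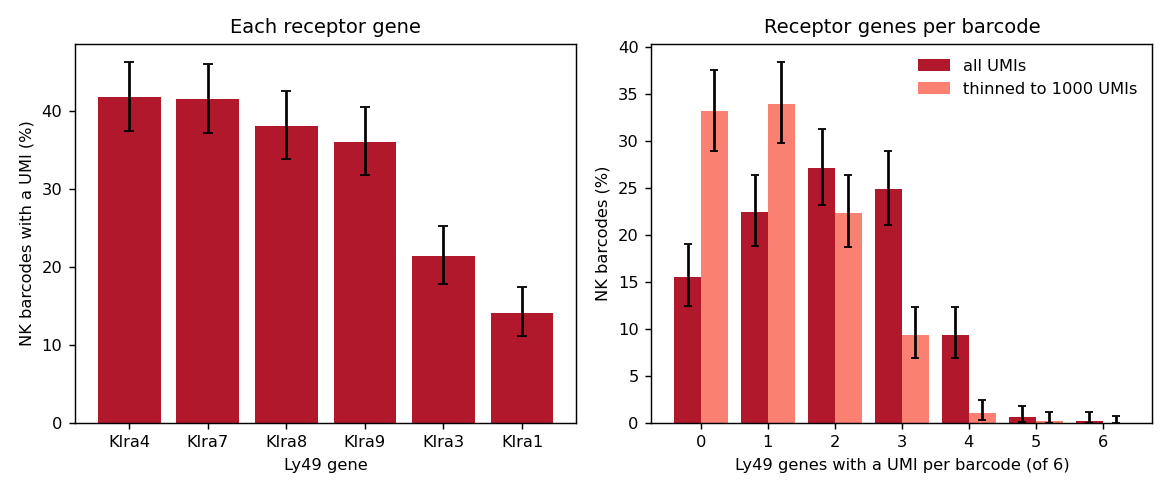
Left, share of NK barcodes with at least 1 UMI of each Ly49 gene. Right, share of NK barcodes by the number of the 6 Ly49 genes detected, at full depth and thinned to 1000 UMIs; bars are 95% Clopper-Pearson intervals. Klra4, Klra7, Klra8 and Klra9 are each seen in 36.0 to 41.8% of barcodes, and 2 or 3 genes per barcode are the commonest counts at full depth.

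Regulators of NK identity were present. Eomes, a T-box factor of conventional NK cells, had 301 CPM in NK, against 77.8 CPM in CD8 T and 1.68 CPM in CD4 T barcodes. Tbx21, which encodes T-bet, had 172, 79.8 and 46.3 CPM in these gates. Irf8 had 1196 CPM in NK, 15.6 CPM in CD8 T, 157 CPM in B and 216 CPM in macrophage barcodes, 76.8-fold (57.4 to 105) higher than in CD8 T. Nfil3, needed for NK development, Zeb2 and Prdm1 were also at least 2-fold higher than in CD8 T. Bcl11b, a T lineage factor, had 10.6 CPM in NK and 303 CPM in CD8 T barcodes, Tcf7 45.2 and 204 CPM, and Lef1 32.3 and 163 CPM. Of 16 transcription factors tested, 6 were higher and 3 lower, with a median of 0.49, where 9.86% of all genes were higher, 6.6% lower. Relative to CD4 T barcodes 5 were higher and 4 lower, with a median of 0.47, beside 8.94% and 7.98% of all genes.

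Against CD8 T barcodes, genes listed for circulating and mature NK cells were more often higher than lower. Those listed for immature or resident cells were more often lower than higher. The comparison is with T cells, so it does not measure how mature or resident the NK cells were. Of all genes tested against CD8 T, 9.86% were higher and 6.6% lower. Of 12 circulating NK genes, 10 were higher and 1 (S1pr1) lower, with a median log2 ratio of 3.69. However, 5 of the 10, Klra4, Klra8, Klra9, S1pr5 and Cma1, reached 20 UMIs through the NK gate alone. Their direction follows from that limit, and they enter the median. Of the 7 with at least 20 UMIs in CD8 T barcodes, 5 were higher and 1 lower. Itga2 (CD49b) had 127 CPM in NK and 8.80 CPM in CD8 T barcodes, and S1pr5, a receptor for exit from tissue, 44.6 and 6.43 CPM. Of 12 mature NK genes, 8 were higher and 1 (Ly6c2) lower, with a median of 1.33. S1pr5 and Cma1, among the 8, had fewer than 20 UMIs in CD8 T barcodes. Of the 10 with at least 20 UMIs there, 6 were higher. Klrg1 had 40.5 CPM in NK and 14.9 CPM in CD8 T barcodes and Cma1, a chymase gene, 67.4 and 0.338 CPM. Irf8, Itgam, S1pr5 and Cma1 stand in both of these lists. Of 11 immature NK genes, 3 (Kit, Xcl1, Cd7) were higher and 7 lower, with a median of -1.22. Kit had fewer than 20 UMIs in CD8 T barcodes. Without the marker-bearing barcodes 4 were higher and 6 lower. Those 7 include Il7r, Thy1 and Ltb, which T cells also express.

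Of all genes tested against CD8 T, 9.86% were higher and 6.6% lower. Of 16 ILC1 and residency genes tested against CD8 T, 3 (Cd200r1, Rgs2, Ccr2) were higher and 5 (Cxcr6, Il7r, Inpp4b, Il21r, Podnl1) lower, with a median of -0.11. Cd200r1 had fewer than 20 UMIs in CD8 T barcodes. Lower ones numbered 4 without the likely doublets and 6 without the marker-bearing barcodes, and Il7r is in the immature list as well. Cxcr6, which retains lymphocytes in tissue, had 5.86 CPM in NK and 194 CPM in CD8 T barcodes, and Zfp683 (Hobit) had 1 UMI in the gate. Itga1 (CD49a), a marker of resident NK cells and ILC1, had 51.6 and 71.0 CPM. Tnfsf10 (TRAIL) had 21.1 and 40.3 CPM. Compared with CD4 T barcodes, 0 of 17 were higher and 8 lower, beside 8.94% and 7.98% of all genes.

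Among genes with at least 100 CPM and 50 UMIs in the higher gate, the 15 highest ratios against CD8 T included, beside 6 Klra genes, the pseudogene Klra13-ps among them, and 3 other Klr genes, the factors Irf8 and Hhex, the adaptors Tyrobp and Fcer1g, the signalling inhibitor Spry2 and the chemokine Ccl1. Hhex had 123 CPM in NK and 4.40 CPM in CD8 T barcodes, and Spry2 229 and 9.13 CPM. Many of the lowest ratios within these limits were those of T cell genes. Cd6 had 2.93 CPM in NK and 218 CPM in CD8 T barcodes, Themis 2.35 and 153 CPM, Cd5 3.52 and 182 CPM, Il7r 31.1 and 490 CPM, Icos 20.5 and 238 CPM, and Ccr7 4.69 and 133 CPM. Dapl1 had 0 UMIs in NK and 314 UMIs in CD8 T barcodes, a ratio of at most 0.0166 when the NK gate is set to the floor of 3 counts. Mgp, a matrix protein gene, and Klk8, a kallikrein gene, were in the same group, with 6 and 9 UMIs in NK and 420 and 484 UMIs in CD8 T barcodes. Against CD4 T barcodes the lowest ratios within the same limits were those of Il17a, with 3 UMIs in NK and 314 UMIs in CD4 T barcodes, Tnfsf8 with 4 and 331, and Cd40lg with 0 and 220.

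**Figure D4:**
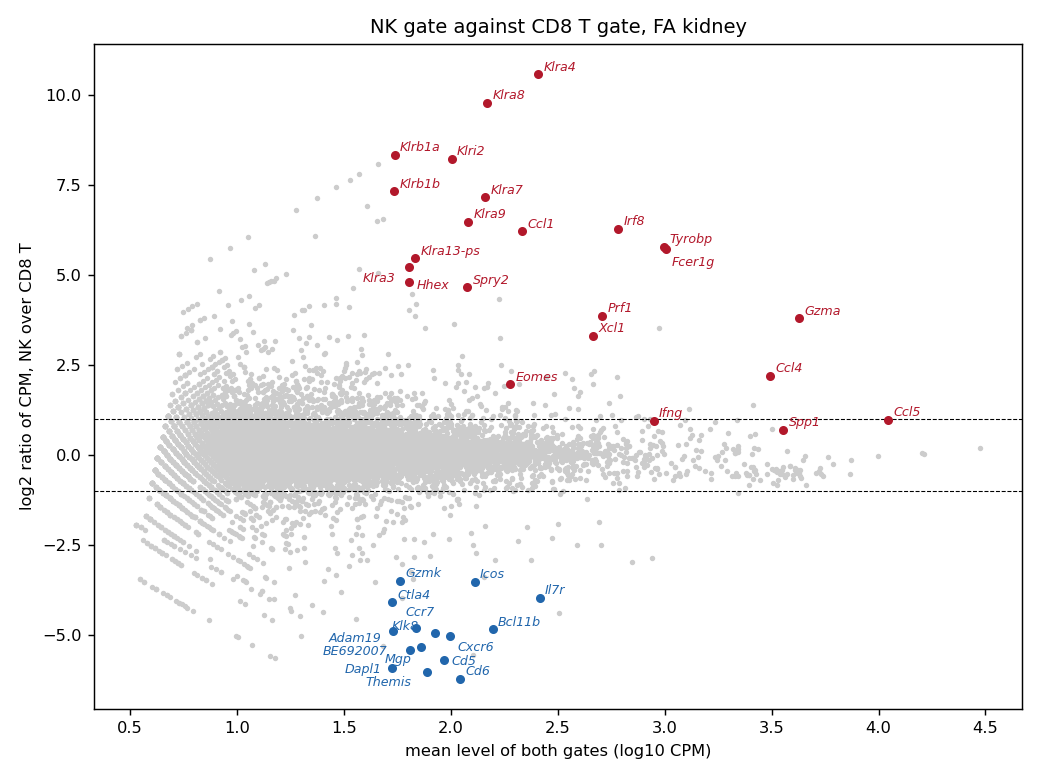
Log2 ratio of CPM, NK over CD8 T (vertical), against the log10 of the mean CPM of both gates (horizontal) for the genes tested in the FA kidney; dashed lines mark 2-fold. Named genes are the 15 highest and 15 lowest by ratio among those with at least 100 CPM and 50 UMIs in the higher gate, with 8 effector and other genes; Klr genes, Irf8, Tyrobp and Fcer1g lie at the top and Cd6, Themis and Cd5 at the bottom.

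T cell receptor transcripts differed by locus. Trac had 28.7 CPM in NK and 609.6 CPM in CD8 T barcodes, and Trbc2 158 and 1249.7 CPM. Trbc1 was closer, with 324 CPM in NK and 531 CPM in CD8 T barcodes, and was seen in 29.8% of NK and 27.9% of CD8 T barcodes after thinning, against 0.174% of B barcodes. Trdc, the delta constant gene, had 49.3 and 21.0 CPM, and Trdv4 had 52 UMIs in NK and 0 in CD8 T barcodes. No barcode of the gate had more than 1 UMI of any CD3 gene, which the rule fixes. Lyz2, a myeloid gene, had 545 NK UMIs, all in 5 barcodes and 162 of them in 1, and it was detected in 1.02% of NK and 0.861% of B barcodes. Cd79a, Mzb1, C1qb, Xcr1, Clec9a, Ly6g, Ms4a2, Il13 and Il23r had no UMI in the gate.

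Cd27 and Itgam (CD11b) mark the course of mouse NK maturation, from Cd27 to Itgam. Cd27 alone was detected in 55 NK barcodes (11.2%), both in 19 (3.87%), Itgam alone in 143 (29.1%) and neither in 274 (55.8%). Thinned, neither was detected in 80.7% and Itgam alone in 14.5%, so most barcodes cannot be placed at this depth. The 143 barcodes with Itgam alone were set beside the 74 with Cd27, a split on measured values that is given as a description. Prf1 had 1257 CPM with Itgam alone and 481 CPM with Cd27, a ratio of 2.61 (2.18 to 3.16). Gzmb had 1157 and 532 CPM, Gzma 9217 and 5936 CPM, and Cma1 48 and 6 UMIs. Irf8 was 1.80-fold (1.54 to 2.09) and Zeb2 2.05-fold (1.50 to 2.83) higher with Itgam alone. Cd7 had 95.6 CPM with Itgam alone and 322 CPM with Cd27, Tcf7 19.1 and 67.7 CPM, Emb 157 and 373 CPM, and Xcl1 417 and 664 CPM. The Ly49 genes Klra4, Klra7, Klra8 and Klra9 had ratios between 0.923 and 1.11, each with an interval that includes 1.

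Barcodes with Itga1 or Cxcr6, 65 of 491, were compared with the other 426. Their content moved with tubule and myeloid transcripts. Of these 65 barcodes 20 carried at least 3 UMIs of the 20 other-class markers, and of the other 426, 51 did. The highest ratios by the naming rule were those of Fabp4, C3, Ldhb, Spp1 (12426 and 2836 CPM) and the proximal tubule receptor Pth1r, and Lyz2, Il1b, Cd74 and Apoe were among the lowest. Of 7872 genes tested 7.01% were at least 2-fold higher and 6.45% at least 2-fold lower. Of 11 ILC1 and residency genes tested 4 were higher (Il7r, Tmem176a, Tmem176b, Socs2) and 1 lower (Ckb), with a median of -0.19 beside 0.01 over all genes. Il7r had 92.2 CPM with Itga1 or Cxcr6 and 19.0 CPM without, Cd200r1 31.9 and 6.32 CPM, Eomes 269 and 307 CPM, and Itgam 46.1 and 158 CPM. The part of the tubule transcripts in these values was not tested.

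Some effector transcripts came from very few barcodes. Gzmc, a granzyme of strongly stimulated lymphocytes, had 156 UMIs in 13 NK barcodes, and 76 of them lay in 1. In those 13, Xcl1 had 10992 CPM, against 561 CPM in the other NK barcodes, and Csf2 435 against 4.22 CPM. Tnfrsf9 (4-1BB) had 261 against 60.9 CPM and Ccl3 3548 against 1687 CPM. Gzma had 2307 against 8107 CPM, Eomes 43.5 against 308 CPM and Klra4 43.5 against 526 CPM. The barcode with 76 Gzmc UMIs weighs heavily on the values of Xcl1, Csf2 and Ccl3. Without it the other 12 had 2554 CPM of Xcl1, 29.4 CPM of Csf2 from 1 UMI and 235 CPM of Tnfrsf9, and Ccl3, at 1439 CPM, was below the 1687 CPM of the NK barcodes without Gzmc. Gzma stayed below them at 3112 CPM, Eomes at 58.7 CPM and Klra4 at 58.7 CPM. Ccl1, an attractant of Ccr8-bearing cells, had 722 UMIs in the gate, and 716 of them were in 1 barcode of 11879 UMIs. That barcode also held 418 Xcl1, 114 Ccl3, 76 Gzmc, 27 Tnfrsf4 and 19 Csf2 UMIs, with 12 Ncr1, 0 Klrb1c, 0 Klre1, 0 Gzma and 0 Cd3d UMIs, and did not score as a likely doublet. The NK levels of Ccl1 and Csf2, and with them their higher ratios against CD8 T, rest on that barcode, and outside it the gate held 6 Ccl1 and 8 Csf2 UMIs.

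**Figure D5:**
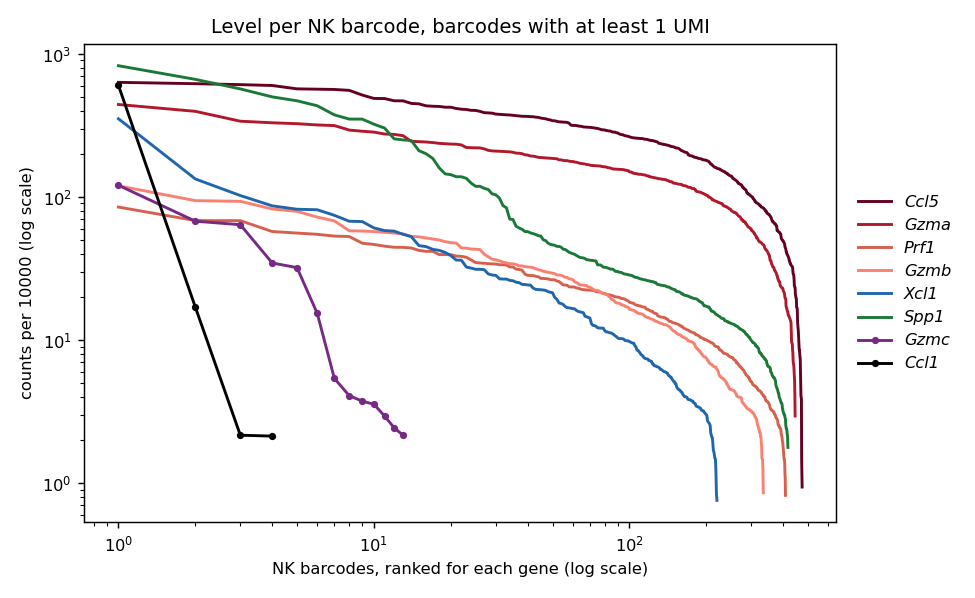
Level in each NK barcode (counts per 10000, log scale), ranked from highest to lowest for each of 8 genes (rank on a log scale); barcodes with 0 UMIs are not drawn. Ccl5 and Gzma stay high over most barcodes, Spp1 and Xcl1 drop early, Gzmc ends after 13 barcodes and Ccl1 after 4.

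Receptors for cytokines that sustain NK cells were higher than in T cells for part of the list. Il2rb, the shared chain for interleukins 2 and 15, had 743 CPM in NK, 158 CPM in CD8 T and 149.9 CPM in CD4 T barcodes, 4.69-fold (4.22 to 5.23) higher than in CD8 T. Il18rap had 224 and 62.2 CPM in NK and CD8 T barcodes and Il12rb2 88.6 and 12.9 CPM. Il7r and Il21r were lower. Of 15 tested, 4 were higher and 2 lower, with a median of -0.17; without the likely doublets or without the marker-bearing barcodes 5 were higher, and the median was 0.054 and 0.13. Over all genes tested against CD8 T, 9.86% were higher and 6.6% lower. Of 18 trafficking genes, 3 were higher, Ccr2 and S1pr5 among them, and 4 (Cxcr3, Cxcr6, Ccr7, S1pr1) lower, with a median of 0.27. S1pr5 had fewer than 20 UMIs in CD8 T barcodes. Ccr2, the receptor for Ccl2, had 205 CPM in NK and 87.6 CPM in CD8 T barcodes. Of 8 checkpoint genes, 3 (Klrg1, Klrc1, Cd200r1) were higher and 3 (Pdcd1, Havcr2, Ctla4) lower, with a median of -0.04. Cd200r1 had fewer than 20 UMIs in CD8 T barcodes. Without the marker-bearing barcodes 2 were higher with a median of 0.15. Pdcd1 had 9 UMIs, Lag3 5 and Tigit 14 in the gate.

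Of the cell death genes, which the series is about, 17 of 19 tested were within 2-fold of the CD8 T level. Most genes were within it too, with 9.86% of all 10657 genes at least 2-fold higher and 6.6% at least 2-fold lower. Gsdmd, whose cleaved protein forms membrane pores, had 29.3 CPM in NK and 20.6 CPM in CD8 T barcodes, a ratio of 1.42 with an interval of 0.958 to 2.10. Gsdme, which granzyme B and caspase 3 can cleave, had 14 UMIs, or 8.21 CPM, in NK and 12.9 CPM in CD8 T barcodes, a ratio of 0.639 (0.320 to 1.21). Both intervals include 1. Macrophages had 47.2 CPM of Gsdmd, and tubule barcodes 28.7 CPM of Gsdme. In all, 1 (Bid) was higher and 1 (Zbp1) lower, with a median of 0.27; without the marker-bearing barcodes 2 were lower, and without the likely doublets 18 could be tested. Bcl2, which protects lymphocytes, had 369 CPM in NK, 293 CPM in CD8 T and 173 CPM in CD4 T barcodes, and Bcl2l11 308, 179 and 116 CPM.

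Cell cycle transcripts were found in few NK barcodes. At least 2 UMIs of Mki67, Top2a, Birc5, Cenpf and Nusap1 summed were found in 18 NK barcodes (3.67%, 2.19 to 5.73), 7.45% of CD8 T, 12.7% of CD4 T, 8.09% of B and 34.2% of macrophage barcodes. Thinned to 1000 UMIs, the shares were 1.04% (0.337 to 2.40) of NK, 3.70% (2.49 to 5.27) of CD8 T, 6.05% of CD4 T, 2.61% (1.47 to 4.27) of B and 14.4% of macrophage barcodes, and the NK interval overlaps that of B but not that of CD8 T barcodes. Of 22 cell cycle genes 0 were higher and 14 lower than in CD8 T (15 without the likely doublets, 13 without the marker-bearing barcodes). The median was -1.34, or -0.57 with thinned barcodes. In the CD4 T comparison 17 were lower, with a median of -2.25. Over all genes tested, 9.86% were higher and 6.6% lower against CD8 T, and 8.94% and 7.98% against CD4 T. Mki67 had 39.3 CPM in NK, 102 CPM in CD8 T and 209 CPM in CD4 T barcodes.

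Several interferon-stimulated genes were lower in NK than in T barcodes. Of 16 tested, 0 were higher and 5 (Ifit1, Ifit3, Ifi27l2a, Zbp1, Ly6a) lower than in CD8 T, with a median of -0.85. In the CD4 T comparison 10 were lower, with a median of -1.20. Over all genes tested, 9.86% were higher and 6.6% lower against CD8 T, and 8.94% and 7.98% against CD4 T. Without the likely doublets, or without the marker-bearing barcodes, 8 were lower than in CD8 T. Ifi27l2a had 213 CPM in NK, against 1541 CPM in CD8 T, 2615 CPM in CD4 T and 1739 CPM in B barcodes. It was detected in 5.80% of NK, 59.6% of CD8 T and 56.6% of B barcodes after thinning, and 25 NK barcodes held 93.1% of its UMIs. Isg15 had 165 CPM in NK and 316 CPM in CD8 T barcodes, and Irf7 187 and 151 CPM.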

How the data were processed

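The series measured single-cell RNA of 1 FA and 1 control kidney in droplets. The authors deposited a table of UMI counts per gene and barcode, raw whole numbers of 21855 genes. Per the submitters' processing notes, Seurat and the mm10 build were used; no aligner, counter or cell filter is named there. Barcodes were tied to libraries by the column prefix, the control one taken from its letter.

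Counts were summed per gate (NK, CD8 T, CD4 T, B, macrophage, dendritic, tubule) and divided by the gate's total to give CPM. CD8 T and CD4 T barcodes had at least 2 CD3 UMIs, none of the NK genes, and Cd8a or Cd8b1, or Cd4, alone. The NK sum was 1705169 UMIs in 491 barcodes, CD8 T 2955858 in 792, CD4 T 1187413 in 315. Levels have exact Poisson intervals, ratios exact conditional binomial intervals and shares Clopper-Pearson intervals, at 95%; reads beyond UMIs do not enter, and intervals and floors cover counting error only. Genes with 20 UMIs over both gates were tested for a 2-fold ratio; against 0, a floor of 3 counts over the gate was used. Shares were also taken after thinning to 1000 UMIs, which leaves out 8 NK, 8 CD8 T, 1 CD4 T and 7 B barcodes. Likely doublets are the 2420 of 15922 barcodes with the highest share of simulated pairs among 50 neighbours; they were kept. Beside 19 gene lists, named genes are the 15 highest and 15 lowest ratios over CD8 T (10 and 10 over CD4 T and in the Itga1 or Cxcr6 split) with at least 100 CPM and 50 UMIs in the higher gate, leaving out mitochondrial, ribosomal, haemoglobin, numbered, sex-linked, receptor segment and gate genes. Tnfrsf9, Tnfrsf4 and the genes of the barcode with most Ccl1 were named after their values were seen. Members and lists were chosen with earlier results of these data known. The ratio step was tested on simulated data. Python 3.11.15, numpy 2.4.6, scipy 1.17.1 and scikit-learn 1.9.0 were used.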

Additional observations from a re-analysis of the deposited data

How the results depend on the processing

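No paired analysis was possible because each group has 1 library, and leaving a library out leaves none. Of 308 values of the main results under other settings 266 stayed within their interval (counts of genes within 1.5 times) and 42 moved. For a gene list that interval runs between the medians of its members' lower and upper limits. A turn in direction was looked for only in list medians past 2-fold, and 0 of those turned. Of 639 single-gene values 384 stayed and 255 moved. The NK share was 3.84% with an NK sum of 1 or more, 2.75% with 3 or more, 3.45% with at most 20% mitochondrial UMIs, 3.45% with at least 1000 UMIs and 2.65% without the marker-bearing barcodes, a setting chosen after seeing the data. Genes higher than in CD8 T numbered 487 with thinned barcodes and 624 without the marker-bearing ones, against 1051, and those lower 453 thinned, against 703. Over CD4 T 1295 were higher with an NK sum of 1 or more and 469 thinned, against 857, and 443 lower thinned, against 765. In the Itga1 or Cxcr6 split 918 were higher with an NK sum of 1 or more, 362 without doublets, 204 thinned and 309 without the marker-bearing barcodes, against 552. Thinning leaves fewer genes to test; the other causes were not tested.

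Median log2 ratios over CD8 T that moved were 2.76 for receptors without doublets. With an NK sum of 1 or more they were 0.26 for transcription factors, 0.31 for ILC1 and residency, 0.52 for cytokines, 0.062 for trafficking and 0.31 for glycolysis. Thinned, they were -1.42 for immature NK, -0.79 for ILC1 and residency, 1.07 for cytokines, -1.08 for checkpoints and -0.57 for the cell cycle. Without the marker-bearing barcodes they were -0.75 for ILC1 and residency and 1.16 for cytokines. Medians within 2-fold also changed sign. ILC1 and residency (-0.11) and glycolysis (-0.01) were above 0 with an NK sum of 1 or more. Glycolysis was also at 0.055 without doublets, 0.068 with each barcode weighed the same and 0.023 without the marker-bearing ones. Cytokine receptors (-0.17) were at 0.054 without doublets, 0.18 thinned and 0.13 without the marker-bearing barcodes. Checkpoints (-0.04) were at 0.0096 with a CD3 sum of 0 and 0.15 without the marker-bearing barcodes, and ligands (-0.08) at 0.0003 without them. Thinned, Cd27 alone was at 4.35%, both at 0.414%, Itgam alone at 14.5%, neither at 80.7% and cycling at 1.04% of NK barcodes. With an NK sum of 1 or more the thinned shares were 74.3% for Gzma, 39.0% for Gzmb, 44.6% for Prf1, 46.7% for Ifng and 81.9% for Ccl5. Gzma was at 90.6% with a sum of 3 or more, 91.5% without doublets and 92.5% without the marker-bearing barcodes, and Ccl5 at 97.8% without the marker-bearing ones. Shallow barcodes limit the placing of single cells by low transcripts such as Cd27.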

Other observations

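Immediate early genes, which respond to stimulation and to tissue dissociation, were high throughout the FA lymphocytes. Fos had 3935 CPM in NK, 2418 CPM in CD8 T, 3043 CPM in CD4 T and 3527 CPM in B barcodes, and Dusp1 1839, 759, 1339 and 403 CPM. Of 16 such genes 3 (Egr1, Dusp1, Zfp36) were at least 2-fold higher in NK than in CD8 T barcodes and 0 lower, with a median log2 ratio of 0.76, and 6 were higher without the likely doublets and 4 without the marker-bearing barcodes. Against CD4 T barcodes 0 of 16 passed 2-fold either way. Over all genes tested, 9.86% were higher and 6.6% lower against CD8 T, and 8.94% and 7.98% against CD4 T. Of 15 glycolysis genes 0 passed 2-fold against CD8 T, with a median of -0.01, and 1 was higher without the likely doublets; Ldha had 307 CPM in NK and 355 CPM in CD8 T barcodes.

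Among genes for ligands and cytokines that can act on NK cells, Cxcl16, Ccl2 and Il18 were at least 2-fold higher in macrophage than in NK barcodes. Il15 was within 2-fold. Cxcl16, the ligand of Cxcr6, had 27.0 CPM in NK, 484 CPM in macrophage and 214 CPM in tubule barcodes, and Ccl2, the ligand of Ccr2, 28.7, 1116 and 51.0 CPM. Cxcr6 itself was scarce in NK barcodes, at 5.86 CPM. Il18 had 4.11 CPM in NK and 37.0 CPM in macrophage barcodes, and Il15 8.21 and 12.2 CPM. The NKG2D ligand genes Raet1d, Raet1e and H60c had at most 1 UMI each in the NK gate. Of 13 ligand genes tested, 2 (Il15, Ccl2) were at least 2-fold higher in NK than in CD8 T barcodes and 0 lower, with a median of -0.08. Over all genes tested, 9.86% were higher and 6.6% lower. Both Il15 and Ccl2 had fewer than 20 UMIs in CD8 T barcodes, so the limit for testing weighs on this count. Of the 10 ligand genes with at least 20 UMIs there, 0 were higher and 0 lower. Without the likely doublets 0 of 10 were higher, and without the marker-bearing barcodes 1 of 11 was higher and 1 lower.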
